A study of Mus musculus with 2 samples.

Results

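The enzymes that methylate lysine 9 of histone H3 (H3K9), proteins that read that mark and a corepressor were followed across the cell classes of the mouse embryonic brain. Their genes were 10 of the 32285 counted. These were chosen by symbol and by no rule on measured values, but with earlier results of these data known. The 6 methyltransferase genes were Suv39h1, Suv39h2, Setdb1, Setdb2, Ehmt1 and Ehmt2. The 4 others were Cbx1, Cbx3 and Cbx5, which encode the heterochromatin protein 1 (HP1) forms HP1β, HP1γ and HP1α, and Trim28, which encodes the corepressor KAP1. H3K9 methylation marks silent chromatin: HP1 proteins bind it through their chromodomain and in turn bind more methyltransferase, which lets the mark spread. SUV39H1 and SUV39H2 trimethylate H3K9 at pericentromeric repeats, SETDB1 does so at retroelements to which KAP1 and zinc finger proteins bring it, and EHMT1 and EHMT2 act as a pair that adds the lower methylation states in euchromatin.

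The NTD library came from embryos of dams kept on a low-folate diet and injected intraperitoneally with methotrexate, a folate antagonist, at 1.5 mg/kg on gestational day 7.5. The control library came from embryos of dams given normal saline. Closure of the neural tube was observed from embryonic day 9.5 to 10.5, and the labels describe the NTD embryos as delayed and small, with hindbrain malformation and spina bifida in most. How many embryos each library holds, their sex and exact stage, and whether they were pooled, is not given in the labels. With 1 library a group nothing below has a replicate check, and every 95% interval covers counting error only.

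After removal of called doublets the NTD library held 16657 cells with a median of 2434 UMIs (unique molecular identifiers, each standing for 1 captured RNA molecule), and the control library 15530 cells with a median of 2167. The libraries shared 105 barcodes. Both were labelled brain, but the control library also held limb, visceral and liver-like cells: cluster c7, led by Tbx4 and Tbx5, had 20 NTD and 2023 control cells, and the yolk sac or liver-like cluster had 3 NTD and 132 control cells. Ribosomal protein genes took 12.7% of NTD and 8.35% of control UMIs. Xist stood at 869.5 CPM (counts of the gene scaled to a fixed total of UMIs) in the NTD and 90.5 CPM in the control library, and 4 Y-linked genes summed to 152 CPM in the NTD and 451 CPM in the control library. Library, embryo sex, tissue dissected and treatment cannot be told apart here.

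The upstream sequence of 3 genes is shown because Suv39h1 and Cbx5 separated progenitors from neurons more than the other 8, while Trim28 hardly did. Each run is the 250 bases before a RefSeq start (GRCm38.p6), read 5′ to 3′ on the gene's strand, and none overlaps an exon of the GENCODE M21 annotation. Capitals mark a CCAAT box, which appears as ATTGG on the other strand, or an E2F site.
Suv39h1, chrX:8074761-8075010, minus strand: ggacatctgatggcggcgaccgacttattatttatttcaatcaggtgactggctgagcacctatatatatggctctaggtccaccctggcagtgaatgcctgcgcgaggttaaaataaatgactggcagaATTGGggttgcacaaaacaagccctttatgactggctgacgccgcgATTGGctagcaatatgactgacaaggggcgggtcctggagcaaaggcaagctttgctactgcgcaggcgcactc
Cbx5, chr15:103239853-103240102, minus strand: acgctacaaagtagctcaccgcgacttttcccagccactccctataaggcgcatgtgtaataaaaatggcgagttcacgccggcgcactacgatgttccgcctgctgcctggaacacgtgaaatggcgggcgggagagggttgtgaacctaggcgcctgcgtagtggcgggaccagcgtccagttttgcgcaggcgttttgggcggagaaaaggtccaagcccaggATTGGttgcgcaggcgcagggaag
Trim28, chr7:13023902-13024151, plus strand: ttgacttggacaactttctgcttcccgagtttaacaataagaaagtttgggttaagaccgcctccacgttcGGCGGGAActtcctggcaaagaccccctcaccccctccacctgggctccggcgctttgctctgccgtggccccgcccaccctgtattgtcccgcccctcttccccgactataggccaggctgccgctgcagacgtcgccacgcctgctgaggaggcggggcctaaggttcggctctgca
Motifs were searched on both strands. The E2F forms were TTTCGCGC, TTTGGCGC and TTCCCGCC. The box CCAAT was present in 4 of the 14 windows of the 10 genes, against 33.9% of all 32851 windows of that length. An E2F form was present in 3 of the 14 windows, those of Suv39h2, Trim28 and 1 of the 2 windows of Cbx3, against 2.48% of all windows. The cell cycle homology region, TTTGAA, was in 0 of the 14 windows, against 5252 of the 32851. These matches describe letters only.

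Cells were grouped by clustering and named from marker genes. The neural progenitor-like class had 6071 NTD and 3132 control cells, and the neuron-like class 2680 NTD and 1821 control cells. Mesenchyme-like cells numbered 3226 in NTD and 4365 in control, epithelium-like cells 662 in NTD and 512 in control, and erythroid-like cells, the blood cells of the comparison, 102 in NTD and 182 in control. Different clusters held most of a class in the 2 libraries. Among progenitor-like cells c2, led by genes that include Nkx2-1 and Nr2e1, was the largest in NTD with 2443 cells, and c3 the largest in control with 1647. Among mesenchyme-like cells c0 was the largest in NTD with 2870 cells and c7 in control with 2023, and among erythroid-like cells c26 in NTD with 55 and c16 in control with 125. Fewer cells expressing a gene and less RNA per cell cannot be told apart in these sums.

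All 10 genes were detected in progenitor-like cells, and their RNA was lower in neurons than in progenitors for most of them. Suv39h1 stood at 58.2 CPM (95% Poisson interval 54.7 to 61.8) in NTD and 61.1 CPM (56.0 to 66.6) in control progenitor-like cells. In neuron-like cells it stood at 32.0 CPM (28.1 to 36.2) in NTD and 28.1 CPM (23.7 to 33.1) in control. The intervals of the 2 classes do not overlap in either library, and progenitors were 1.82-fold higher in NTD, a log2 ratio of 0.86 (0.66 to 1.07), with a log2 ratio of 1.12 (0.85 to 1.40) in control. Cbx5, whose product HP1α concentrates at pericentromeric heterochromatin, behaved alike: 407 CPM in NTD and 389 CPM in control progenitor-like cells, against 225 CPM in NTD and 194 CPM in control neuron-like cells. Its log2 ratio of progenitors over neurons was 0.85 (0.78 to 0.93) in NTD and 1.00 (0.90 to 1.11) in control. No other member had a higher ratio than these 2 genes in either library.

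The remaining methyltransferase genes were higher in progenitors by smaller steps. Setdb1 stood at 109.6 CPM in NTD and 132 CPM in control progenitor-like cells, against 74.0 CPM in NTD and 94.2 CPM in control neuron-like cells, log2 ratios of 0.56 (0.43 to 0.70) in NTD and 0.48 (0.33 to 0.64) in control. Setdb2, a related SET domain gene and the least counted of the 10 in progenitors, had log2 ratios of 0.65 (0.30 to 1.02) in NTD and 0.67 (0.27 to 1.10) in control. Suv39h2 had 0.42 (0.17 to 0.68) in NTD and 0.44 (0.11 to 0.80) in control. For these 3 genes the interval lies above 0 in both libraries by class totals. Under other settings their control ratios fell as low as 0.08 for Setdb1, 0.06 for Setdb2 and 0.04 for Suv39h2. The pair that encodes GLP and G9a differed less between the classes: Ehmt1 had 0.25 (0.18 to 0.31) in NTD and 0.26 (0.18 to 0.34) in control, and Ehmt2 had 0.10 (-0.07 to 0.28) in NTD and 0.36 (0.14 to 0.59) in control.

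Among the HP1 genes and Trim28, Cbx1 had a smaller contrast than Cbx5, with a log2 ratio of 0.31 (0.23 to 0.38) in NTD and 0.43 (0.33 to 0.53) in control. Cbx3, at 419 CPM in NTD and 336 CPM in control progenitor-like cells against 395 CPM in NTD and 287 CPM in control neuron-like cells, had 0.09 (0.02 to 0.15) in NTD and 0.22 (0.13 to 0.32) in control. Trim28 had 0.14 in both libraries. Neurons thus kept Cbx3 and Trim28 RNA near the progenitor level, while Cbx5 stood at 0.55 of it in NTD.

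Progenitors were at least 25% above neurons for 5 of the 10 genes in NTD and 7 of the 10 in control, and for 0 at least 20% below, the same fold turned round and the limit used throughout. Of all measured genes, those with at least 20 UMIs over the 2 sums, 31.5% were that much higher and 20.3% lower in NTD, and 35.1% higher and 21.3% lower in control. The median log2 ratio over the 10 genes was 0.36 in NTD and 0.44 in control, and over all measured genes 0.10 in NTD and 0.14 in control. Genes of the cell cycle were higher in progenitors too: the median over 42 S phase genes was 0.56 in NTD and 0.92 in control, and over 51 G2 and M phase genes 0.72 in NTD and 1.12 in control. Their part in the contrast was not tested. With TMM scaling (trimmed mean of M values, which centres the bulk of genes) the count higher was 5 of 10 in both libraries, where 26.3% of all measured genes were higher in NTD and 27.5% in control.

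**Figure D1:**
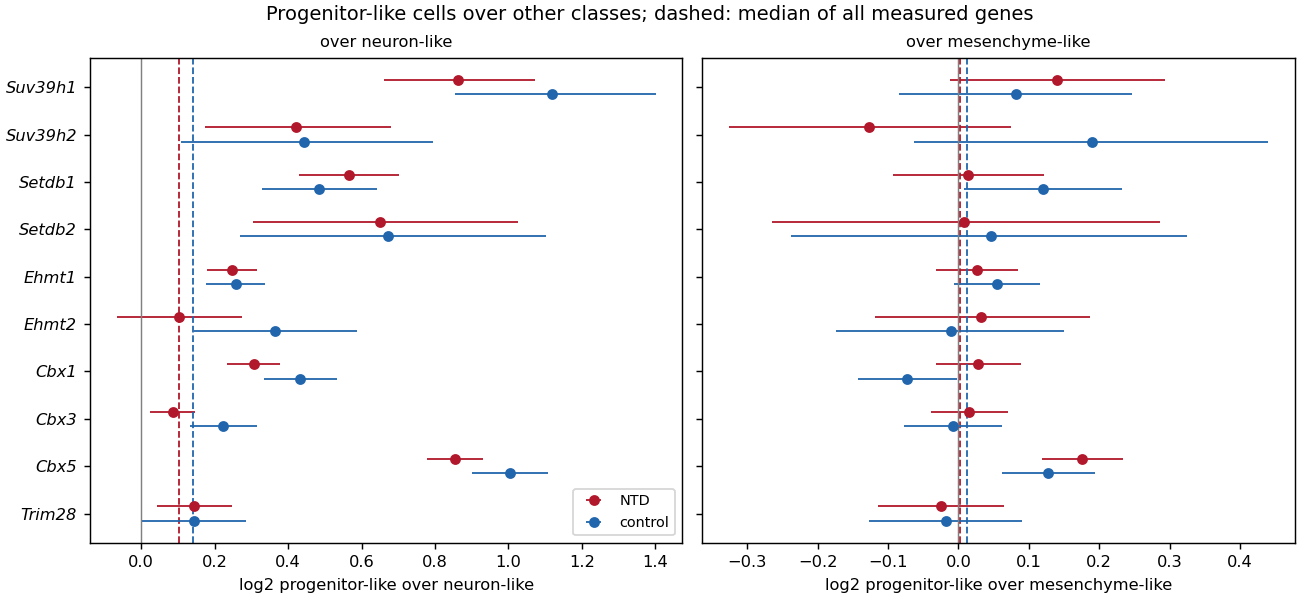
Log2 ratio of the CPM in neural progenitor-like cells over neuron-like cells (left) and mesenchyme-like cells (right) for each of the 10 genes, with NTD in red and control in blue. Bars are 95% intervals of counting error and dashed lines the median of all measured genes; Suv39h1 and Cbx5 lie farthest from 0 on the left, at 0.86 and 0.85 in NTD, and on the right no gene reaches the limit of 25%.

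Mesenchyme-like cells held the 10 genes at levels close to those of progenitors. Progenitors were past that limit, higher or lower, for 0 of the 10 genes in either library, where 20.9% of all measured genes were higher and 18.3% lower in NTD, and 21.0% higher and 19.5% lower in control. Cbx5 had the only interval above 0 in both libraries, at log2 ratios of 0.18 (0.12 to 0.23) in NTD and 0.13 (0.06 to 0.19) in control. Against epithelium-like cells, progenitors were past the limit higher for 1 of the 10 genes in NTD, where 21.7% of all measured genes were, and for 2 in control, where 21.3% were. They were lower for 0 in either library, where 23.5% of all measured genes were lower in NTD and 26.3% in control. The gene in NTD was Cbx5, with a log2 ratio of 0.34 (0.23 to 0.46) in NTD and 0.16 (0.02 to 0.29) in control. The genes in control were Suv39h2 at 0.36 (-0.15 to 0.96) and Setdb2 at 0.45 (-0.15 to 1.17), both with intervals that held 0.

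Erythroid-like cells, though few, stood lowest of all classes for Ehmt1 and highest for Suv39h1. Ehmt1 stood at 170.4 CPM (120.0 to 235) in NTD and 214 CPM (166 to 272) in control erythroid-like cells, the lowest of the 7 classes with at least 100 cells in both libraries, and its interval did not overlap that of the next class in either library. Its log2 ratio of progenitors over erythroid-like cells was 1.10 (0.66 to 1.63) in NTD and 1.04 (0.70 to 1.42) in control. That put Ehmt1 at percentile 79.3 of all measured genes in NTD and 75.1 in control. Of all 15546 genes measured in NTD, 6276 were past the limit higher in progenitors than in erythroid-like cells and 5255 lower. In control 6277 of 14466 were higher in progenitors than in erythroid-like cells and 4758 lower. Suv39h1 was highest in this class, at 92.1 CPM (56.3 to 142) in NTD and 126 CPM (89.9 to 173) in control, against 66.7 CPM in NTD and 67.4 CPM in control epithelium-like cells, the next in order. Its interval overlapped that of epithelium in NTD and did not in control. Cbx3, Setdb1 and Trim28 also ranked first in erythroid-like cells of both libraries, at 511, 110.5 and 203 CPM in NTD and 402, 172 and 188 CPM in control, with intervals that overlap the next class. Haemoglobin genes took 5.70% of NTD and 4.30% of control UMIs in erythroid-like cells and from 1.04% to 1.32% in the other 6 classes, so haemoglobin UMIs were counted in every class.

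In the order of levels over the 7 classes, neuron-like cells came last for Suv39h1, Suv39h2, Setdb1 and Cbx5 in both libraries. For Cbx5 the step from neurons to the next class was larger than the intervals in both libraries, and for Suv39h1 in control only. Neighbours higher in the order mostly overlapped. Suv39h2, Setdb1, Setdb2, Ehmt2, Cbx3 and Trim28 had overlapping intervals between every pair of neighbours in both libraries. For these genes only classes farther apart in the order could separate. Among them, progenitors and neurons did not overlap for Setdb1, Setdb2 or Cbx3 in either library, for Trim28 in NTD or for Ehmt2 in control. Nor did they for Suv39h2 in NTD, at 30.2 CPM (27.7 to 32.8) in progenitor-like and 22.5 CPM (19.2 to 26.1) in neuron-like cells. Endothelial-like cells and those like neural crest or Schwann precursors lay within the range of the other classes for most genes: Ehmt1 was highest in neural crest-like cells, at 401 CPM in NTD and 482 CPM in control, with intervals that overlap those of progenitors.

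**Figure D2:**
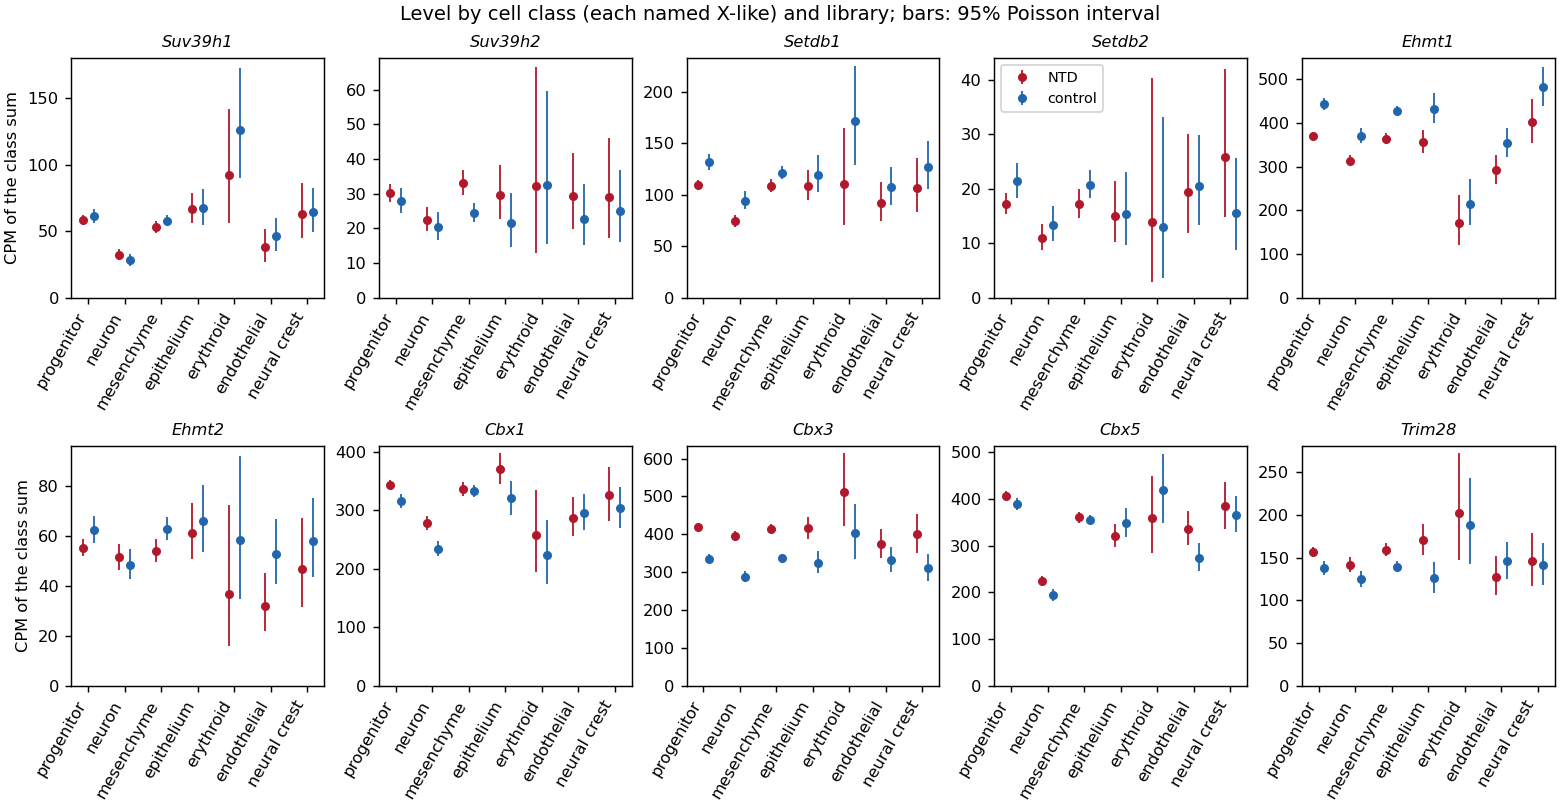
CPM of the summed UMIs of each cell class for the 10 genes, with NTD in red left of control in blue. Bars are 95% Poisson intervals; axes start at 0 and differ between panels. Cbx3 is higher in NTD in every class and Ehmt1 lower in every class by these totals, though at 0.05 in log2 NTD over control of progenitor-like cells relative to genes of like span. The bars of the 102 NTD and 182 control erythroid-like cells are the widest in most panels.

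By the same levels over the 7 classes, Suv39h1 was most like Pkmyt1 (a kinase of mitotic entry), Ska1 (a kinetochore gene) and Snrnp40, with mean Pearson correlations of 0.967, 0.963 and 0.963 over the 2 libraries. Cbx5 was most like Pola1 (DNA polymerase alpha), Kif15 (a mitotic kinesin) and Fancd2 (a DNA repair gene), at 0.985, 0.973 and 0.973. Setdb1 was most like Bub1b, Cenph and Slbp, at 0.971, 0.962 and 0.953, and Suv39h2 like Slbp, Setdb1 and Tipin, at 0.921, 0.921 and 0.902. Cbx3 was most like Impdh2, Hmgb1 and Ebna1bp2, at 0.972, 0.966 and 0.964, and Ehmt1 like Cpsf6, Kif6 and Nxn, at 0.992, 0.990 and 0.987. Trim28 was most like Utp3, Psmb2 and Hspe1, at 0.967, 0.957 and 0.957, and Cbx1 like Foxj3, Gm48228 and Cyp39a1, at 0.951, 0.943 and 0.943. Ehmt2 had Wdr18, Aimp1 and Mat2b, at 0.917, 0.896 and 0.879, and Setdb2 Gm11457, Szrd1 and Cfap20, at 0.898, 0.889 and 0.837. Each correlation rests on 7 points that share a library and its depth, and the 3 highest of 9956 genes were taken, so high values are built into the choice.

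Within progenitor-like cells the 10 genes were set against cell cycle genes, by phase calls and by a split on cycle-gene UMIs. By phase calls, Cbx5 stood at 349 CPM in G1, 421 CPM in S and 407 CPM in G2/M cells in NTD, and at 338 CPM in G1, 444 CPM in S and 381 CPM in G2/M cells in control. Suv39h1 stood at 39.1 CPM (28.8 to 51.8) in G1, 56.1 CPM in S and 61.1 CPM (56.7 to 65.8) in G2/M cells in NTD, and at 50.4 CPM (37.9 to 65.7), 60.4 CPM and 64.2 CPM (57.0 to 72.1) in control. For both genes G1 was the lowest phase in both libraries, and the Suv39h1 intervals of G1 and G2/M overlapped in control. The log2 ratio of G2/M over G1 cells for Suv39h1 was 0.63 (0.22 to 1.10) in NTD and 0.34 (-0.07 to 0.80) in control. That of S over G1 cells for Cbx5 was 0.27 (0.12 to 0.42) in NTD and 0.39 (0.22 to 0.57) in control. Setdb2 had 0.70 (-0.06 to 1.68) in NTD and -0.31 (-0.93 to 0.40) in control for G2/M over G1 cells. Few cells were called G1, 405 in NTD and 374 in control, of which 252 in NTD and 197 in control lay within 0.05 of a score limit. A split by cycle-gene UMIs was therefore added after these phase calls were seen. For the phase calls and the split alike, cells were thinned to 1500 UMIs, which left out 0 NTD and 405 control cells as shallower. For the split the thinned cells were ordered by their UMIs of S and G2/M phase genes, without any of the 10. Cells with over 24 such UMIs were compared with cells of at most 16, limits set at the 25th and 75th percentiles of all cells. Cbx5 stood at 425 CPM in the 1303 high NTD cells and 379 CPM in the 1567 low ones, a log2 ratio of 0.16 (0.07 to 0.26), and at 418 CPM in the 557 high control cells and 341 CPM in the 940 low ones, 0.29 (0.15 to 0.44). It was the only gene of the 10 with an interval above 0 in both libraries. Suv39h1 had 0.26 in both libraries, with intervals from -0.00 to 0.53 in NTD and from -0.10 to 0.62 in control. Ehmt1 had -0.01 in NTD and -0.07 in control, and Cbx3 0.06 in NTD and 0.02 in control. By this split no gene of the 10 was 25% higher in NTD, where 10.3% of all measured genes were. Ehmt2 alone was in control, where 14.3% were. Top2a, a gene of the ordering list, stood at 849 CPM in high and 392 CPM in low NTD cells.

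Between the libraries, the HP1 genes and Trim28 were higher in NTD progenitor-like cells, by small steps and by class totals. Of the 6 methyltransferase genes 5 were lower, with a median log2 ratio of -0.21, near the -0.19 of all measured genes. With TMM scaling, which is given below, Suv39h1 and Ehmt2 changed side. Cbx3 was the farthest from the rest: at 419 CPM (410.1 to 429) in NTD and 336 CPM (323 to 348) in control, its log2 ratio was 0.32 (0.26 to 0.38). Trim28 followed at 157 CPM in NTD and 138 CPM in control, 0.19 (0.09 to 0.29), then Cbx1 at 343 CPM in NTD and 316 CPM in control, 0.12 (0.05 to 0.18). Cbx5 had 0.07 (0.01 to 0.13). All 4 intervals lie above 0 for counting error, which says nothing of how far embryos differ.

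Setdb2, Setdb1 and Ehmt1 lay on the other side. Ehmt1 stood at 371 CPM (362 to 379.8) in NTD and 443 CPM (429 to 457) in control, for a log2 ratio of -0.26 (-0.31 to -0.20). Setdb1 stood at 109.6 CPM in NTD and 132 CPM in control, -0.27 (-0.37 to -0.16), and Setdb2 at 17.2 CPM in NTD and 21.4 CPM in control, -0.31 (-0.58 to -0.04). Ehmt2 had -0.17 (-0.33 to -0.02). The 2 SUV39 genes did not separate from 0: Suv39h1 had -0.07 (-0.22 to 0.08) and Suv39h2 0.11 (-0.11 to 0.34). Suv39h1 lies on the X chromosome, and Xist stood at 972 CPM in NTD and 197 CPM in control progenitor-like cells; the part of sex was not tested.

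None of the 10 reached the limit in progenitor-like cells, 0 higher and 0 lower, where 13.0% of all measured genes were that much higher and 35.2% lower; Cbx3 lay just under the limit. The median log2 ratio was -0.21 over the 6 methyltransferase genes and 0.15 over the 3 HP1 genes and Trim28, beside -0.19 over all measured genes. The 6 methyltransferase genes lay on both sides of that median, from Setdb2 at percentile 36.2 of all measured genes to Suv39h1 at 61.7 and Suv39h2 at 76.0. The 4 others lay above it, from Cbx5 at percentile 72.9 to Cbx3 at 87.0. TMM scaling moved every ratio up by 0.21, so that the methyltransferase median became -0.00 and that of the HP1 genes and Trim28 0.37. The count became 4 higher and 0 lower, where 24.4% of all measured genes were then higher and 17.3% lower. Ehmt1 spans 129.7 kb, the longest of the 10, and relative to genes of like genomic span its log2 ratio was 0.05.

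The share of ribosomal protein UMIs differed between the libraries in every class, at 11.6% in NTD and 7.47% in control progenitor-like cells. In an alternative added after the data were seen, only progenitor-like cells with a ribosomal share from 8% to 11% were summed, 1260 in NTD and 1492 in control. Cbx3 then had a log2 ratio of 0.04 (-0.06 to 0.15), Trim28 -0.01 (-0.18 to 0.16), Ehmt1 0.05 (-0.06 to 0.15) and Setdb1 -0.03 (-0.22 to 0.17). Of the 10 genes, 8 had intervals that held 0, and Cbx1 at 0.19 (0.07 to 0.31) and Cbx5 at 0.11 (0.01 to 0.22) had intervals above 0. The median of all measured genes in this band is not given, here or for other classes. The band values are therefore not set against the bulk of genes. The ratios of Cbx3, Trim28, Ehmt1 and Setdb1 given above were not seen among the cells of this band. The band lies below the NTD share of the class and above the control share. Whether its cells differ otherwise from the rest of their class was not checked, and the part of ribosomal share was not tested.

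**Figure D3:**
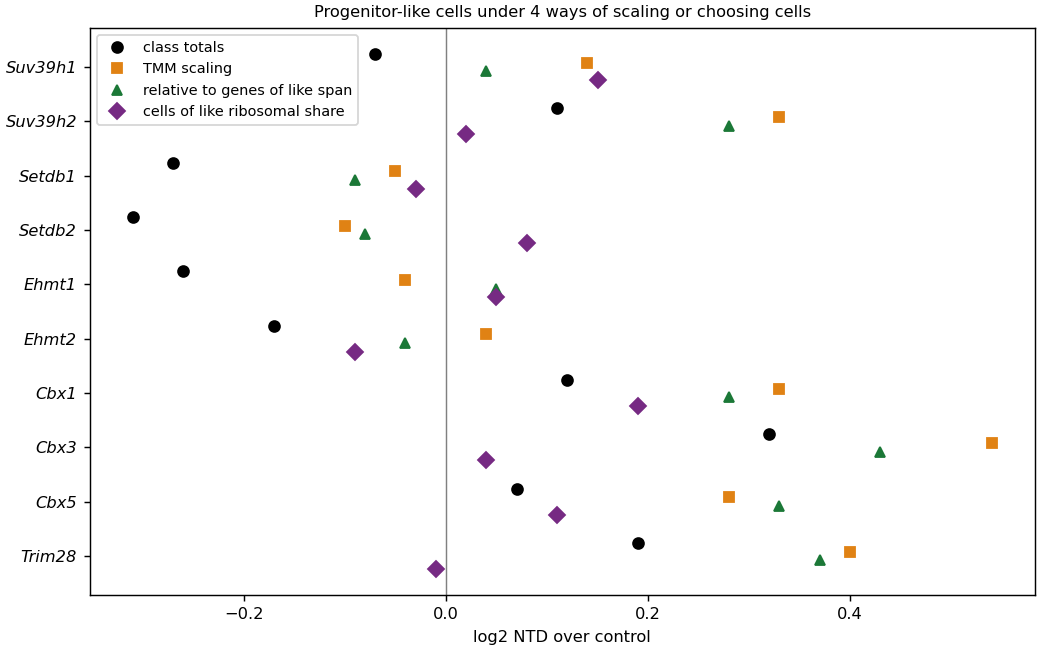
Log2 NTD over control in neural progenitor-like cells for the 10 genes, by class totals (black circles), TMM scaling (orange squares), relative to genes of like genomic span (green triangles) and among cells with a ribosomal protein share of 8% to 11% (purple diamonds). Cbx3 lies at 0.32 by totals and 0.04 in cells of like ribosomal share, and the purple diamonds run from -0.09 to 0.19.

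In neuron-like cells the 3 HP1 genes had larger ratios than in progenitors by class totals, and Trim28 had 0.19 in both classes. Cbx3 stood at 395 CPM in NTD and 287 CPM in control, for a log2 ratio of 0.46 (0.37 to 0.55), Cbx1 at 277 CPM in NTD and 234 CPM in control, 0.24 (0.14 to 0.35), and Cbx5 at 0.21 (0.10 to 0.33). Setdb1 had -0.35 (-0.53 to -0.17) and Ehmt1 -0.24 (-0.33 to -0.16). Cbx3 was the only gene of the 10 at least 25% higher, where 17.4% of all measured genes were, and Setdb1 the only one lower, where 33.9% were. In these cells the cycle lists were higher in NTD as well, with a median of 0.35 over the S phase genes and 0.28 over the G2 and M phase genes, beside -0.16 over all measured genes. The part of cycling cells in the neuron-like values was not tested. Among neuron-like cells with a ribosomal share from 8% to 11%, Cbx3 had 0.09 (-0.07 to 0.26), Cbx1 0.06 (-0.13 to 0.26) and Setdb1 -0.23 (-0.56 to 0.11), so that neither Cbx3 nor Setdb1 was past the limit. Setdb1 was within it also with TMM scaling, at -0.16.

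Mesenchyme-like cells had Cbx3 at 415 CPM in NTD and 337 CPM in control, 0.30 (0.24 to 0.36), and Ehmt1 at 364 CPM in NTD and 426 CPM in control, -0.23 (-0.29 to -0.17). By class totals Suv39h2 was the only gene past the limit there, at 32.9 CPM in NTD and 24.4 CPM in control. Its log2 ratio was 0.43 (0.20 to 0.66), where 15.3% of all measured genes were higher and 33.5% lower. With TMM scaling 3 of the 10 were past the limit higher and 0 lower in this class. Of all 16319 measured genes 3853 were then higher and 3301 lower. In mesenchyme-like cells of like ribosomal share Cbx3 had 0.08 (-0.03 to 0.20) and Suv39h2 0.64 (0.22 to 1.07). With the cluster held fixed, Suv39h2 had 0.14 (-0.26 to 0.58) in mesenchyme-like c0, within the limit, and 0.58 (0.04 to 1.08) in c8. Epithelium-like cells had 3 of the 10 past the limit higher, where 18.0% of all genes were, and 0 lower, where 38.4% were: Suv39h2 at 0.46 (-0.17 to 1.14), Trim28 at 0.44 (0.18 to 0.70) and Cbx3 at 0.35 (0.19 to 0.52). In epithelium-like cells of like ribosomal share Cbx3 had 0.04 (-0.27 to 0.35) and Trim28 0.22 (-0.28 to 0.73), both within the limit. Suv39h2 was within it at 0.22 in thinned cells. With TMM scaling 4 of the 10 were past the limit higher and 0 lower in this class. Of all 12252 measured genes 3431 were then higher and 2892 lower. In erythroid-like cells 8 of the 10 genes had at least 20 UMIs. Of these Cbx3 was past the limit higher, where 20.8% of all genes were, and Suv39h1, Setdb1 and Ehmt2 were past it lower, where 45.2% were, and all 8 intervals held 0. With thinned cells Cbx3 was at 0.04 there, and with TMM scaling or the stricter filter Suv39h1 was within the limit, at -0.28 and -0.18. TMM scaling put 2 of the 8 past the limit higher and 2 lower, where 1462 of 5111 measured genes were higher and 1829 lower.

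**Figure D4:**
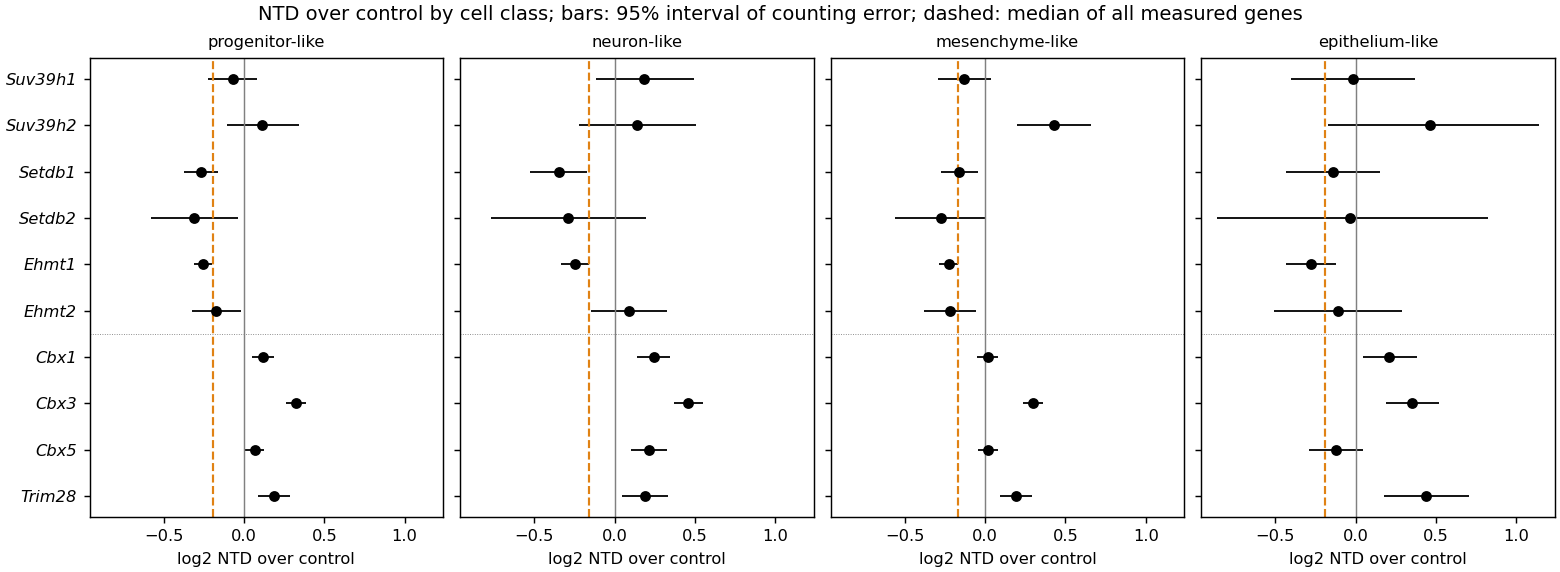
Log2 NTD over control of each of the 10 genes in 4 cell classes. Points are ratios of class CPM, bars 95% intervals of counting error and the dashed line the median of all measured genes, which lies at -0.19 in progenitor-like cells. Cbx3 is to the right of 0 in all 4 panels and Ehmt1 to the left by these totals, though Ehmt1 is at 0.05 in progenitor-like cells relative to genes of like span.

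Since different clusters held most of a class in the 2 libraries, the ratios were also taken within each of the 14 clusters that had at least 100 cells in both. Cbx3 was higher in NTD in 14 of 14, from 0.09 to 0.74, and in 12 the interval lay above 0. Ehmt1 was lower by totals in 13 of 14, from -0.35 to 0.02, with the interval below 0 in 11. Setdb1 was lower in 12 of 14, with 5 intervals below 0, and Suv39h2 higher in 13 of 14, with 1 interval above 0. In progenitor-like cluster c3, with 1287 NTD and 1647 control cells, Cbx3 stood at 404 CPM in NTD and 336 CPM in control. Cbx1, Cbx3, Cbx5 and Suv39h2 lay above the median of all measured genes in 14 of 14 clusters, Trim28 in 13, Setdb1 in 3 and Ehmt1 in 2. The highest Cbx3 ratio came from neuron-like cluster c14, at 383 CPM in NTD and 229 CPM in control, where Suv39h1 also had its highest ratio, 46.0 CPM in NTD and 19.6 CPM in control. All clusters share the same 2 libraries and are not replicates.

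**Figure D5:**
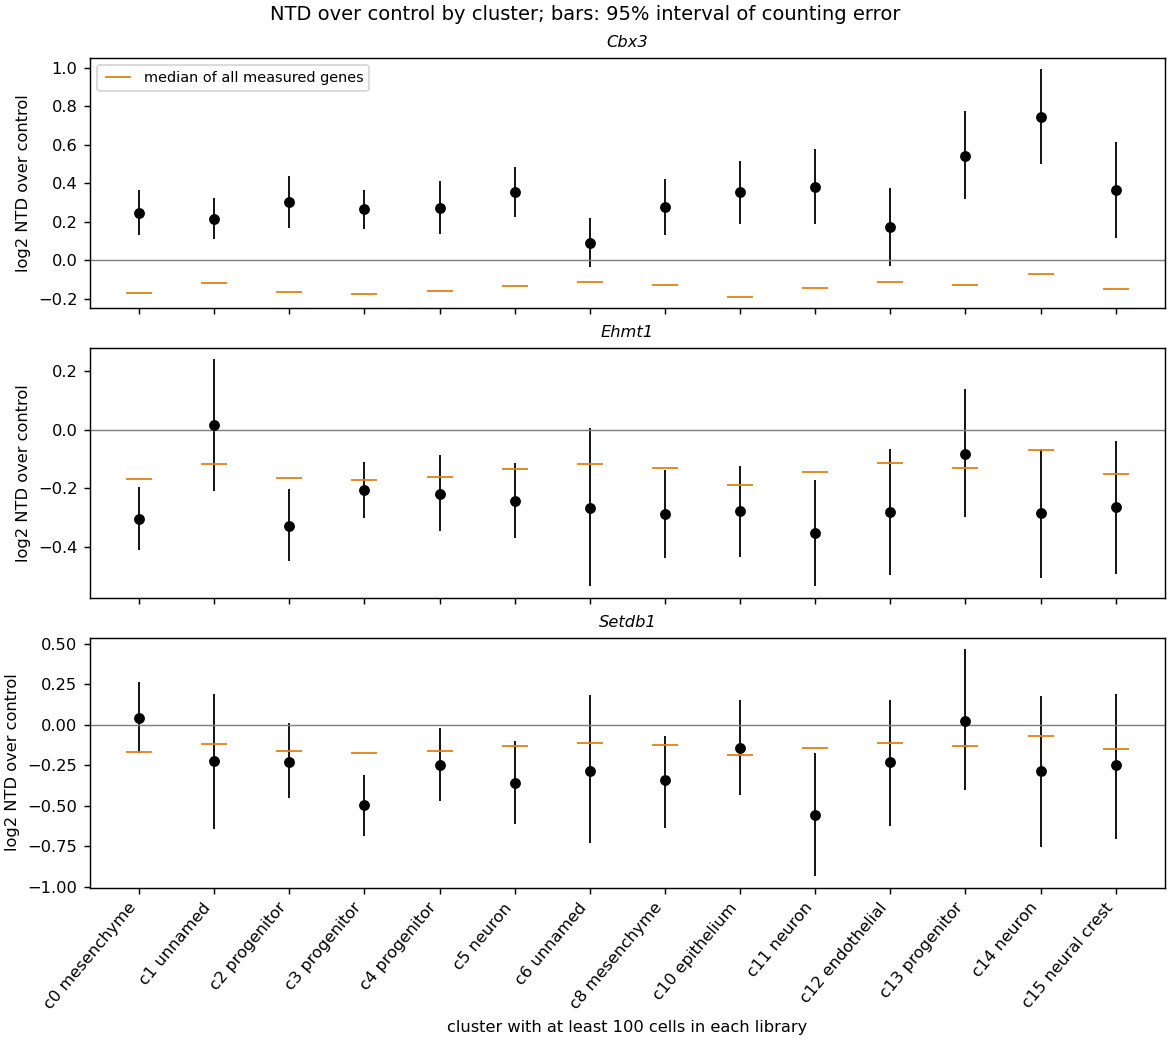
Log2 NTD over control of Cbx3, Ehmt1 and Setdb1 in each of the 14 clusters with at least 100 cells in both libraries. Points are ratios, bars 95% intervals of counting error and orange dashes the median of all measured genes in the cluster; Cbx3 is above its dash in every cluster, at 0.09 to 0.74.

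The 2 unnamed clusters of lowest depth, c1 and c6, had 1708 and 1781 median UMIs in NTD and 1116 and 1175 in control, and c1 was led by liver and blood genes such as Apoa1, Afp and Hbb-bh1. Relative to progenitors they held less Ehmt1, at 128 CPM in NTD and 139 CPM in control, and more Cbx3, at 632 CPM in NTD and 566 CPM in control. Trim28 was also higher there, at 275 CPM in NTD and 289.6 CPM in control, and Suv39h2, at 42.7 CPM in NTD and 37.2 CPM in control. Setdb1 was lower, at 40.8 CPM in NTD and 47.2 CPM in control, and Setdb2, at 4.47 CPM in NTD and 4.19 CPM in control. Suv39h1 was lower too, at 36.5 CPM in NTD and 43.0 CPM in control. The share of all measured genes that differ as much is not given. In these clusters Cbx3 had a log2 ratio of NTD over control of 0.16 (0.08 to 0.24) and Trim28 one of -0.08 (-0.19 to 0.04).

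The partners of the pathway had ratios near the median of all genes. Of 25 genes of H3K9 heterochromatin (among them HUSH, ATRX and UHRF components), 0 were past the limit higher and 4 lower in NTD progenitor-like cells, with a median of -0.16, where 13.0% of all measured genes were higher and 35.2% lower. The 4 farthest from 0 were Cdyl2 at -0.39, Uhrf2 at -0.37, Smchd1 (a silencer of the inactive X) at -0.35 and Pogz (an HP1-binding protein) at -0.34. Of 11 H3K9 demethylase genes 0 were higher and 2 lower, with a median of -0.19. The 2 were Jmjd1c at -0.44 (-0.52 to -0.36) and the little counted Kdm4d, named after its values were seen, at -1.30 (-2.04 to -0.57) with 1.72 CPM in NTD and 4.25 CPM in control. Among those of at least 20 CPM, Jmjd1c was followed by Kdm4b at -0.31, Kdm4c at -0.29 and Phf2 at -0.23. With TMM scaling the counts became 4 higher and 0 lower among the partners, and 1 higher and 1 lower among the demethylases, beside the 24.4% higher and 17.3% lower of all measured genes under that scaling. Of the 5 Cbx genes of Polycomb, which read H3K27 methylation, 1 was past the limit higher and 1 lower, with a median of -0.04. Both stood below 20 CPM and are named after their values were seen: Cbx8 had 0.78 (0.30 to 1.31), at 8.77 CPM in NTD and 5.07 CPM in control, and Cbx7 -0.33 (-0.95 to 0.34), at 3.22 CPM in NTD and 4.01 CPM in control. Of the others, Cbx2 had 0.28 (0.05 to 0.51) and Cbx6 -0.04 (-0.23 to 0.15).

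The cycle lists had medians close to 0 in progenitor-like cells, 0.04 over S phase genes and -0.06 over G2 and M phase genes. Both lay above the -0.19 of all measured genes, and with TMM scaling they were 0.25 and 0.16. The farthest members of the lists were higher in NTD. Pcna (the sliding clamp of replication) stood at 256 CPM in NTD and 155 CPM in control, and Hmgb2 at 1087 CPM in NTD and 659.9 CPM in control. Rrm2, Fen1 and Gmnn had log2 ratios of 0.42, 0.38 and 0.38, and Ube2c, Cdca3 and Cks2 0.71, 0.60 and 0.55. Among cells of like cycle UMIs, Cbx3 had a ratio of 0.36 in the cells with the most cycle UMIs, 0.31 in the middle and 0.31 in those with the fewest, and Ehmt1 had -0.18, -0.35 and -0.24.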

How the data were processed

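The 1 NTD and 1 control library of mouse embryonic brain were made with 10x Genomics 3′ v3 reagents. The authors deposited raw UMI counts per gene and barcode, which per the file headers come from Cell Ranger 7.0.1; STAR and mm10 are named in the submitters' processing notes. No source used here gives the annotation, the intron setting or the use of strand in counting. The genes and lists were chosen with earlier results of these data known.

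Barcodes with at least 500 genes, 1000 UMIs and at most 10% mitochondrial UMIs were kept, which removed 0 of 19056 NTD and 0 of 18572 control barcodes. Scrublet (scanpy 1.11.5, automatic threshold) with an expected rate of 0.8% per 1000 barcodes removed 2399 NTD (12.6%) and 3042 control (16.4%) barcodes. That threshold was unstable. At an expected 5% it called 0 in both libraries, and at 15% it called 2399 in NTD and 6429 (34.6%) in control. The rate used was settled after these runs were seen.

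Counts were scaled to 10000 per cell, log transformed and clustered without integration (2000 variable genes, 30 components, 15 neighbours, leidenalg 0.10.2 at resolution 1.0). A cluster was named by at least 3 markers held by 10% of its cells and at least 25% above the other cells, with a lead of 2 and no more markers of another class among its top 10 genes. The erythroid cluster was split at resolution 0.5 after it was seen to hold macrophages. Differences from other accounts may come from these rebuilt names.

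Raw UMIs were summed per class and library as CPM, with exact Poisson intervals. Ratios added 0.5 counts, needed 20 UMIs over both sums, and have exact conditional binomial intervals. With 1 library per group no test across samples exists and no p-value was computed. The limit of 25% higher, or 20% lower, is a description. TMM scaling came from edgeR 4.0.16. Gene spans and coordinates came from GENCODE M21 (GRCm38), matched by ID for 32235 of 32285 genes. The ratios and their intervals were tested on counts simulated with Poisson error around known changes. Those counts held no variation between embryos or libraries. In GENCODE M21, genes on the opposite strand overlap Suv39h1, Suv39h2, Setdb1, Cbx1 and Trim28, and genes on the same strand overlap Setdb2 and Ehmt1; reads they may share were not separated. The 3 HP1 genes have processed pseudogene copies, and reads shared with them were not checked. Named genes were all 10, up to 4 per other list of at least 20 CPM with the largest ratio in progenitor-like cells, and the 3 most like genes of each of the 10, by the mean of the 2 libraries' correlations of log2 CPM plus 1 over 7 classes.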

Additional observations from a re-analysis of the deposited data

How the results depend on the processing

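Ratios and counts were recomputed under 10 planned settings and 2 added after the data were seen (totals without ribosomal, mitochondrial and globin genes, and cells of like ribosomal share); 80 of the 95 results had a value under all 13 settings, the reported one included, and the others, which lacked UMIs or cells under some, had at least 9. The split by cycle-gene UMIs was also added after the data were seen. No paired analysis was possible because each group had 1 library.

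Over progenitor-like cells, the median log2 NTD over control of the 6 methyltransferase genes was -0.00 with TMM, 0.00 relative to genes of like span and 0.03 in cells of like ribosomal share, where in mesenchyme-like cells it was 0.11. The median of the HP1 genes and Trim28 was 0.37 with TMM and 0.35 relative to like span, and that of all 10 genes 0.21 with TMM and 0.16 relative to like span. In neuron-like cells the median of the 10 was 0.35 with TMM. The count of genes 25% higher in NTD progenitor-like cells was 4 with TMM, 3 relative to like span and 1 with the stricter filter, the matched UMI floor, thinned cells, resolution 2.0 or totals without ribosomal genes. The count lower was 1 with doublets kept, the stricter filter, the matched floor or thinned cells. Of all measured genes 24.4% were higher and 17.3% lower with TMM. For the other settings that share is not given here, so their counts cannot be read against it.

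Of 68 ratios of single genes, 33 took the other sign under at least 1 setting. In 18 of these the reported interval held 0, among them progenitor-like Suv39h1 (from -0.20 to 0.15), neuron-like Suv39h2 (-0.42 to 0.33), Setdb2 (-0.59 to 0.47) and Ehmt2 (-0.13 to 0.28), mesenchyme-like Suv39h1 (-0.20 to 0.22) and Cbx1 (-0.03 to 0.18), and epithelium-like Cbx5 (-0.19 to 0.18) and Ehmt2 (-0.29 to 0.27). The other 15, with reported intervals that left out 0, were as follows. In cells of like ribosomal share, progenitor-like Ehmt1 was 0.05, Setdb2 0.08 and Trim28 -0.01; mesenchyme-like Ehmt1 was 0.05, Setdb1 0.16 and Trim28 -0.04; and neuron-like Trim28 was -0.13. Relative to like span, Ehmt1 was 0.05 in progenitor-like and mesenchyme-like, 0.06 in neuron-like and 0.09 in epithelium-like cells, and mesenchyme-like Setdb1 0.03. With TMM, progenitor-like Ehmt2 was 0.04 and mesenchyme-like Setdb1 0.00. With doublets kept, neuron-like Cbx5 was -0.06. Of progenitors over neurons, NTD Cbx3 was -0.05 and NTD Trim28 -0.00 relative to like span, control Trim28 -0.03, and control Ehmt1 -0.13 with doublets kept. The causes were not tested, and the doublet threshold itself was unstable, as given under the processing. Progenitor-like Cbx3 was above 0 in all 13 settings, from 0.04 to 0.54, and neuron-like Cbx3 from 0.09 to 0.65. Suv39h1 and Cbx5 of progenitors over neurons kept their direction in all 13, from 0.49 to 1.30 for Suv39h1 in control and from 0.37 to 1.11 for Cbx5. Setdb1, Setdb2 and Suv39h2 did so too, but fell as low as 0.08, 0.06 and 0.04 in control. Their lowest values in NTD were 0.20, 0.22 and 0.23.

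With 1 library per group, embryo variation is unknown. Setdb2 and Suv39h2 in erythroid-like cells had under 20 UMIs, so a difference there was not detectable at this depth.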
